A study of Drosophila melanogaster with 2 samples.

Results

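The 2000 regions described here lay just below the weakest peak of the optimal IDR list of Camta, in a ChIP-seq peak list from fly embryos. They were chosen by their deposited signal value. The pooled list of peaks and background held 30000 regions, of which 4902 overlapped one of the 4033 optimal IDR peaks by at least 1 bp. Of the other 25098, the 2000 with the highest signal value were kept as members, and 23098 regions remained.

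All libraries came from 1 group, whole Drosophila melanogaster embryos of mixed sex aged 0 to 24 h, from the strain Camta-MiMIC-GFP. In that line an eGFP exon inserted in an intron of Camta gives a Camta-eGFP fusion made from the gene's own locus, and an anti-GFP antibody pulled down the chromatin. There were 2 biological replicates, numbered 2 and 3, and no group without the fusion was analysed here. Whole embryos of this age mix all tissues and stages, so a region bound in few cells and one bound weakly in many cells cannot be told apart.

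Camta is the fly calmodulin-binding transcription activator, a protein with a DNA-binding domain that recognises a CGCG-containing box in vitro and with sites for the calcium sensor calmodulin. In flies it is best known from photoreceptors, where it acts through the F-box gene Fbxl4 in switching off the light response. The irreproducible discovery rate (IDR) measures how far the ranking of peaks holds up between replicates, and it is used to set how many peaks a list keeps. Here the 4033 IDR peaks were exactly the 4033 regions of highest signal value in the pooled list, with single peaks ranked as low as 27230 in replicate 2 and 25452 in replicate 3. Members thus fell below a cut in pooled signal, and no value shows that each one failed a comparison between the replicates.

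The windows of 101 bases around the summits of 6 members show the kinds of sequence the results turn on. The first pair hold the DNA replication-related element (DRE, TATCGATA), bound by the factor DREF at promoters of housekeeping and replication genes. The third holds Motif 1 (GGTCACAC, here on the reverse strand), a core promoter element bound by M1BP. The last 3 are the strongest member of all, the strongest in an intron and the strongest in a coding exon. Capitals mark the DRE or Motif 1, all are the forward strand on dm6, and the sequence is that of the RefSeq Release 6 assembly.
mad2 promoter, chr3L:5813135-5813235: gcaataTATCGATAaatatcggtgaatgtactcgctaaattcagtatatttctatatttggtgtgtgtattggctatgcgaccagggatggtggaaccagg
Nf1 promoter, chr3R:25982878-25982978: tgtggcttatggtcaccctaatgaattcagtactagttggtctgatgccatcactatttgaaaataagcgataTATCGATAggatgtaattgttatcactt
CycB3 promoter, chr3R:24870831-24870931: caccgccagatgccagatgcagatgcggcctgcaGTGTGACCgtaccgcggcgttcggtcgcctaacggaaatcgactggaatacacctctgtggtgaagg
pho promoter, chr4:1181855-1181955: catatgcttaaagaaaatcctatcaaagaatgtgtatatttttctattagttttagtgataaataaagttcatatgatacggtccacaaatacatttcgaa
chas intron, chrX:17696834-17696934: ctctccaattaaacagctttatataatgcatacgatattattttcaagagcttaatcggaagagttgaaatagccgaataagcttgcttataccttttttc
Sugb coding exon, chr3L:11686085-11686185: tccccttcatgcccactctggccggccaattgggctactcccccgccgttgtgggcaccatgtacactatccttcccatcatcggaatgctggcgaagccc

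mad2, a spindle checkpoint gene, had its member 92 bp upstream of the start site with a signal value of 92.40, rank 2433 in replicate 2 and rank 7753 in replicate 3. The summit at Nf1, which encodes the fly neurofibromin, a Ras GTPase-activating protein, lay 85 bp upstream with a signal value of 91.69 and ranks 4156 and 4969 in replicates 2 and 3. That of CycB3, a mitotic cyclin gene, lay 65 bp upstream with a signal value of 91.69 and ranks 5310 and 4246. Replicate 2 thus ranked mad2 and Nf1 higher than replicate 3 did, and CycB3 lower. The G and C share of the windows was 39.6% at mad2, 35.6% at Nf1, 60.4% at CycB3, 25.7% at pho, 31.7% at chas and 61.4% at Sugb.

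The rule set the signal values, which are given as a description. Members had a median signal value of 80.2, with quartiles of 75.2 and 87.1 and a range of 70.4 to 95.3. IDR peaks had a median of 147 and remaining regions one of 36.8. Members took pooled ranks 4035 to 6191, since 157 regions in their signal range overlapped an IDR peak and were dropped. A q value of 0.01 or less was deposited for 1597 members (79.8%), for all 4033 IDR peaks and for 0 of the remaining regions. Nothing in the signal marked the upper edge. The strongest members, at pho, in an intron of chas and at vig2, had 95.32, 95.29 and 95.28, against 95.36 at Hnf4, 95.35 in an intron of RapGAP1 and 95.34 near CG32085, the weakest IDR peaks. The lower edge was as smooth, with 70.41 at CG1024, 70.41 in SNF4Agamma and 70.40 at CG33181 inside it and 70.38 at CG10565, sba and shep outside it.

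Promoters were the most frequent location of members. A summit within 500 bp of any annotated transcript start was counted as promoter, and 913 members (45.6%) were, against 53.3% of IDR peaks and 24.8% of remaining regions. Introns held 702 members (35.1%), against 32.9% of IDR peaks and 33.3% of remaining regions, and 279 members (13.9%) were intergenic, against 11.8% of IDR peaks and 16.3% of remaining regions. Coding exons held 53 members (2.65%), against 0.223% of IDR peaks and 21.4% of remaining regions. The 3' UTR held 1.1% of members, against 0.645% of IDR peaks and 2.39% of remaining regions.

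The promoter share of members was lower than that of IDR peaks (difference -7.61 percentage points, 95% interval -11.6 to -3.63) and 20.8 points higher than that of remaining regions (17.5 to 24.2). The coding exon share was 2.43 points above that of IDR peaks (1.5 to 3.7) and below that of remaining regions (difference -18.7 points, -19.9 to -17.2). For introns the intervals included 0 in both comparisons, from -1.5 to 6.06 against IDR peaks and from -1.36 to 5.11 against remaining regions. These intervals hold together over 14 location comparisons and cover only the number of regions, which are not independent replicates. With replicate 2's list alone (without replicate 3) the promoter difference from IDR peaks was -4.21 points and the coding exon difference 5.18 points, and with replicate 3's list alone they were -9.56 and 3.13 points. Here and below, the IDR peaks in such comparisons stayed the 4033 made from both replicates.

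Within the members, the promoter share showed no steady course with signal. It was 46.6%, 43.4%, 45.8% and 46.8% in successive bins of 500 members from strongest to weakest. The 2000 weakest IDR peaks had 52%, and the 2000 regions that followed the members had 40.1%. Against those neighbours the promoter share of members was lower (difference -6.3 points, interval -10.9 to -1.69) and higher (5.5 points, 0.94 to 10). Coding exons held 8.9% of the next 2000 regions, and members were lower by comparison (difference -6.25 points, -8.46 to -4.14). Of the 157 dropped regions 59.9% were at promoters, and with them included the promoter share was 46.7%.

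**Figure D1:**
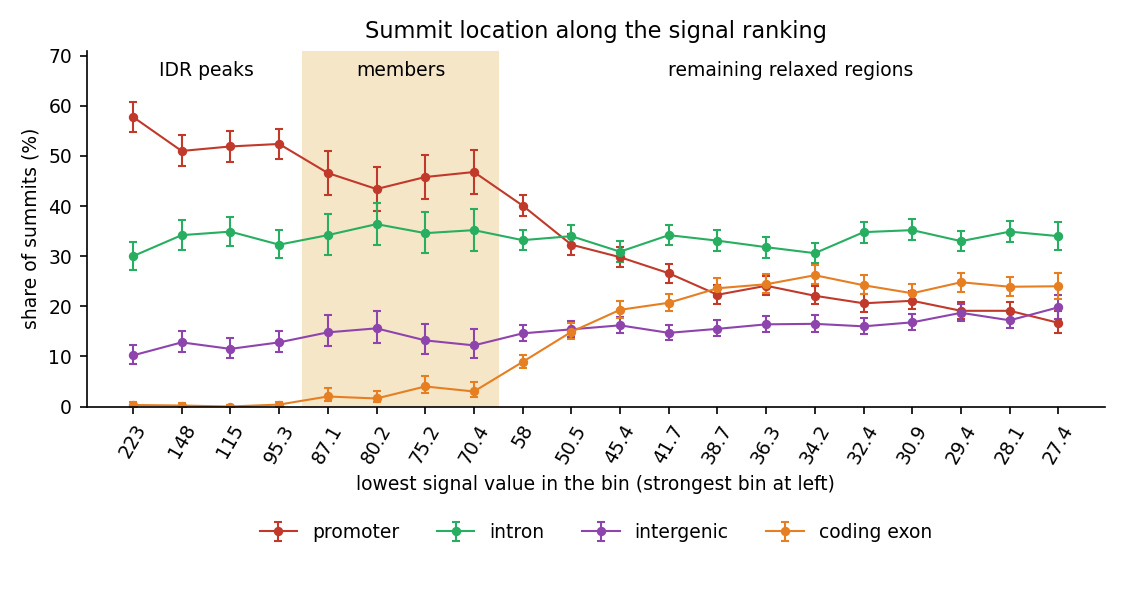
Share of summits (percent, vertical axis) at promoters, in introns, in intergenic sequence and in coding exons, in bins of the signal ranking with the strongest at left; bars are 95% Wilson intervals. The shaded members have promoter shares of 43.4% to 46.8%, between 52.4% in the weakest IDR bin and 40.1% in the next bin.

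The distance from start sites also placed members between the other sets. Of 854 members within 500 bp of a protein-coding start site, 585 (68.5%) had the summit upstream of it, against 81.1% of IDR peaks and 46.4% of remaining regions. The differences were -12.6 points (-17.6 to -7.72) and 22.1 points (17.2 to 26.7). The median position from the start site was -44.5 bp in members and -88 bp in IDR peaks, both upstream, and 16.5 bp, downstream, in remaining regions. Summits between divergent coding start sites made up 9.4% of members, against 17.3% of IDR peaks and 2% of remaining regions, and both intervals left out 0 (-10.3 to -5.44 and 5.74 to 9.35).

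**Figure D2:**
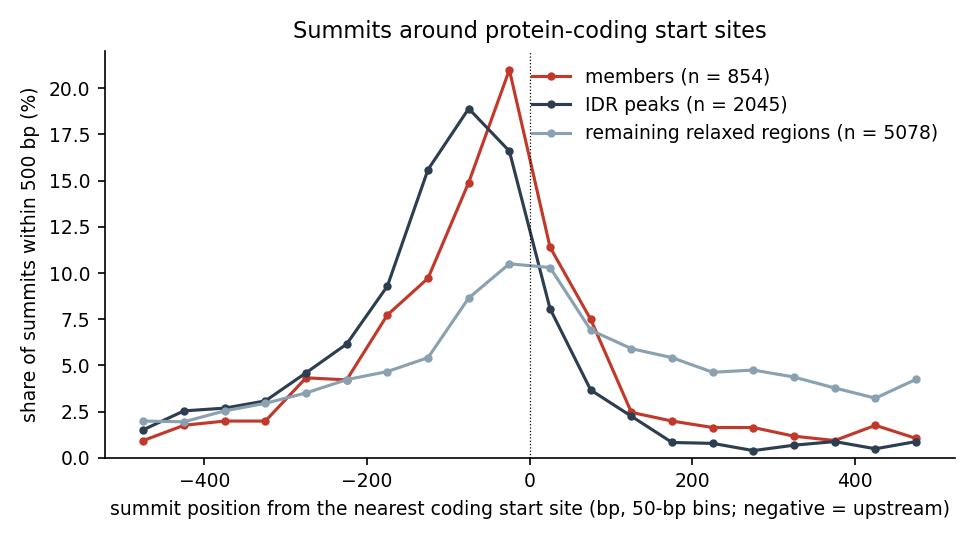
Position of summits from the nearest protein-coding start site (bp, horizontal axis, 50-bp bins) as a share of all summits within 500 bp of one (percent, vertical axis), for members, IDR peaks and remaining regions. Members peak in the 50 bp just upstream of the start with 21% of summits, where IDR peaks have 16.6% and remaining regions 10.5%.

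At promoters, the 12 strongest members spanned signal values of 95.04 to 95.32. They lay at pho, vig2, asRNA:CR45016, CG12811, CG10286, spirit, RpS30, jvl, CG10470, IFT46, CG2200 and lola. pho encodes a Polycomb-group DNA-binding protein, RpS30 a protein of the small ribosomal subunit, IFT46 a subunit of the intraflagellar transport machinery, and lola a family of zinc finger transcription factors that guide axon growth. Ranks in the replicates lay furthest apart at asRNA:CR45016, which starts near Cap-H2, with 22792 in replicate 2 and 2776 in replicate 3, and at pho, with 18257 and 3205. They were closest at lola, with 3996 and 4022, and the other members lay between, such as vig2 with 5831 and 3729 and jvl with 5067 and 4098. Summits of the 12 lay from -408 bp, upstream, at asRNA:CR45016 to 64 bp, downstream, at lola.

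Several of these promoters were shared by genes on opposite strands, such as jvl with eff and CG12811 with ohgt. In all, 242 promoter members lay within 500 bp of start sites of 2 or more protein-coding genes, so their signal cannot be assigned to 1 gene. A further 59 had no coding start site in that distance.

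Away from promoters, the 6 strongest members lay in introns of chas, AdamTS-B, Meltrin and Sik3 and between genes nearest to CG7304 and Ir67b, with signal values of 95.12 to 95.29. AdamTS-B and Meltrin encode metalloproteases of the ADAM and ADAMTS families and Sik3 a salt-inducible kinase. Intron members fell in 549 genes, 419 of them with 1 member. The hosts with most, picked after their values were seen, were lncRNA:CR44999 with 6 and SNF4Agamma, Tlk, bun, hth and pnt with 5 each. hth encodes the Hox cofactor homothorax and pnt an ETS factor of EGF receptor signalling. These are long genes, from 55.9 kb for pnt to 150 kb for lncRNA:CR44999, and the count was not corrected for length.

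Members lay closer to IDR peaks than remaining regions did. The host gene had an IDR summit in it or at its promoter for 75.4% of intron members, against 65.2% of remaining intron regions (difference 10.1 points, interval 5.19 to 14.5). That share was not corrected for gene length, and a host with several intron regions counted once for each. Within 1000 bp of an IDR peak lay 14.2% of members (283), against 10.4% of remaining regions (difference 3.8 points, 1.72 to 6.13). The median gap to the nearest IDR peak was 5691 bp for members and 7416 bp for remaining regions. Members, like IDR peaks, lay at promoters more often than remaining regions did. Neither the share within 1000 bp nor the gap was split by location.

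The 53 coding exon members were a small set of a distinct base composition. Their 5 strongest, picked after their values were seen, lay in Sugb, l(1)G0469, spir, Abl and SelR, with signal values of 89.46 to 93.04. The summit in l(1)G0469 also lay within Prp16, and which of these genes has the coding exon was not determined. spir encodes an actin nucleator and Abl a non-receptor tyrosine kinase. Their windows had G and C shares of 61.4% in Sugb, 66.3% in l(1)G0469, 67.3% in spir, 71.3% in Abl and 69.3% in SelR. Over all 53 the mean was 63% ± 6.44 (SD over regions), against 51.2% in the 9 coding exon IDR peaks and 57.8% in remaining coding exon regions. Members were higher than remaining regions by 5.21 points (2.71 to 7.71). Their mean was 11.9 points above that of the IDR peaks (normal interval 0.742 to 23). Such an interval is too narrow for 9 regions with an SD of 11.6, so that difference is not counted as called.

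Over all locations, the summit windows of members averaged 39.2% G and C, against 35.9% in IDR peaks and 45.9% in remaining regions. The differences were 3.3 points (2.54 to 4.06) and -6.73 points (-7.41 to -6.05). At promoters the means were 41.5% in members, 37.2% in IDR peaks and 45.5% in remaining regions, and in introns 35.8% in members, 33.7% in IDR peaks and 41.1% in remaining regions. Against the neighbours in the ranking the differences over all locations were 2.02 points from the 2000 weakest IDR peaks and -2.73 points from the next 2000 regions. In intergenic sequence members had 35.4%, as did IDR peaks (interval of the difference -1.73 to 1.8), against 41.7% in remaining regions. The size of these differences changed with the replicate's list used. With replicate 2's list alone (without replicate 3) they were 7.29 points against IDR peaks and -2.99 points against remaining regions. With replicate 3's list alone they were 2.06 and -7.34 points. The IDR peaks were still those made from both replicates, and what this adds to the shift was not tested.

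**Figure D3:**
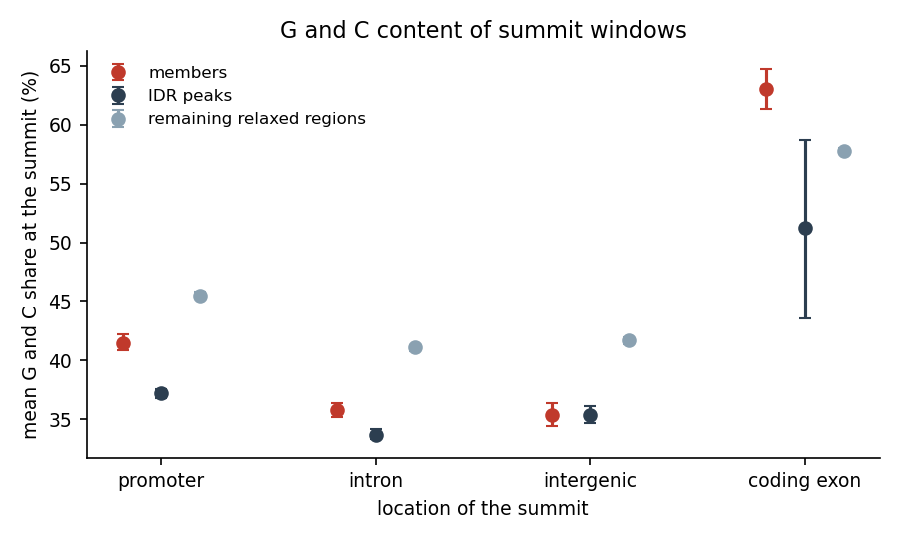
Mean share of G and C in the 101 bases around the summit (percent, vertical axis) by location, for members, IDR peaks and remaining regions; bars are 95% intervals over regions, some smaller than the point. Members lie between the other sets at promoters (41.5%) and in introns (35.8%), and above both in coding exons (63%). The coding exon mean of IDR peaks rests on 9 regions.

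Nearly all members were listed in both replicates, at different ranks. A region of replicate 2's list overlapped 1967 members (98.4%) and one of replicate 3's list 1994 (99.7%). Both did for 1961 members (98%), against 99.9% of IDR peaks and 47% of remaining regions. The pooled list was made from the same reads, so this is a description and was not tested. The median rank of members was 5709 in replicate 2 and 5356 in replicate 3, out of 30000 and 29279 regions.

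Among the 6033 strongest regions of each replicate, as many as there are IDR peaks and members, 458 members (22.9%) were found in both. A further 596 were found in replicate 2 alone, 818 in replicate 3 alone and 128 in neither. Of IDR peaks 91.7% were found in both. Spearman's rho of the ranks over members was -0.588, against 0.688 over IDR peaks. A negative value is fixed in part by the rule, since members fill a narrow band of a signal made from both replicates. Members strong in replicate 2 alone had a mean G and C share of 41.4%, against 37.2% in members strong in replicate 3 alone (difference 4.17 points, interval 3.1 to 5.24). Their promoter shares were 47.1% and 42.9%, with an interval of the difference that included 0 (-1 to 9.47). In IDR peaks the same G and C means were 42% and 34.5%, so the gap between the replicates was not limited to members. What produced it was not tested.

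**Figure D4:**
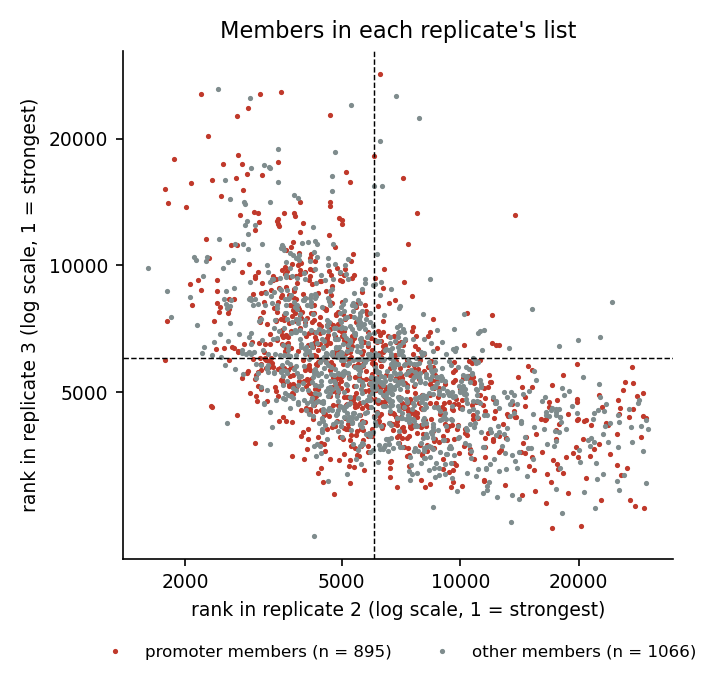
Rank of the 1961 members listed in both replicates, in the list of replicate 2 (horizontal axis, log scale) and of replicate 3 (vertical axis, log scale), coloured by promoter or other location; dashed lines mark rank 6033. The 458 members at lower left are strong in both lists, and those at lower right and upper left are strong in 1 alone.

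A member lay at the promoter of 1072 of 13945 protein-coding genes (7.69%). An IDR peak did at 2619 genes (18.8%), and 102 genes had both. Of the 11326 genes without an IDR peak at the promoter, 970 (8.56%) had a member there, and 137 of these had an IDR summit inside the gene. Each list of protein-coding genes below is set beside that 8.56%. A member near start sites of several genes counts for each of them. Lists were chosen with earlier results known and were not tested, so a higher share describes these genes alone.

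Genes of the cell cycle and DNA replication had the highest share of members among the lists. Of 23 without an IDR peak, 10 (43.5%) had a member, and 13 of all 36 had an IDR peak. The strongest were mad2 (signal value 92.40), CycB3 (91.69) and Orc1, a subunit of the origin recognition complex (91.58). The summits at CycB3 and Orc1 lay 65 and 28 bp upstream of the start. Orc1 ranked 3752 in replicate 2 and 5479 in replicate 3.

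The protein synthesis and turnover lists had shares between 8% and 33.3%. Of the 18 cytosolic ribosomal protein genes without an IDR peak 6 (33.3%) had a member, which with the 68 under IDR peaks makes 74 of 86 genes. RpS30 had a signal value of 95.21, RpS6 one of 88.34 and RpS2 one of 76.25, with summits 24 bp upstream, 3 bp downstream and 2 bp downstream of the start. Proteasome genes had 9 of 38 (23.7%), led by Rpn10 (92.81) and Rpn11 (92.63), both of the regulatory particle, and by the core subunit Prosalpha6 (89.54). Rpn10 was absent from replicate 2's list and ranked 2259 in replicate 3, and Prosalpha6 ranked 20236 and 2402, so both were strong in replicate 3 alone. Prosalpha6 shared the region with Npc1a, whose start site was nearer the summit. Mitochondrial ribosomal protein genes had 11 of 48 (22.9%), led by mRpS26 (93.79), mRpL43 (93.47) and mRpL42 (91.93), each of which shared its promoter with another gene. At mRpS26 the start site of that gene, CG13698, was nearer the summit. Oxidative phosphorylation genes had 11 of 71 (15.5%), with COX7B (89.74), ATPsynbeta (89.73) and ATPsynCF6 (88.30) at the top. COX7B, ATPsynbeta and ATPsynCF6 shared the region with Sec3, CG11076 and Sec13, whose start sites were nearer the summit. Translation factors had 5 of 34 (14.7%), among them eIF3k (87.20), eIF2A (79.81) and eIF4G1 (72.86). Aminoacyl-tRNA synthetases had 2 of 25 (8%), PheRS-m (77.08) and AlaRS (74.55).

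Chaperone genes had 7 of 25 (28%), among them Hsp60A (87.07), a mitochondrial chaperonin, and CCT7 (85.94) and CCT5 (83.98), subunits of the cytosolic chaperonin ring. Splicing factors had 6 of 26 (23.1%), led by snRNP-U1-70K (91.01), noi (89.95) and SmD2 (76.13). RNA polymerase, TAF and Mediator genes had 9 of 51 (17.6%), led by MED17 (84.99), Polr2C (84.59) and Polr3D (83.36). MED17, Polr2C and Polr3D shared the region with CG12321, PolG2 and mus304, whose start sites were nearer the summit. CCT7, CCT5, noi and SmD2 also shared theirs with another gene. Polycomb and trithorax group genes had 3 of 15 (20%): pho, escl (81.65) and, named after its value was seen, Su(z)2 (75.68). Trl, which encodes GAGA factor, had a member of 83.09 as well as an IDR peak. Among insulator and core promoter factors 0 of the 9 genes without an IDR peak had a member, while 14 of 23 had an IDR peak. In that list pita had a member of 93.94 beside its IDR peak. The summit of that member lay 160 bp downstream of the pita start site and nearer to that of Dcp-1.

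Developmental and tissue-specific lists ranged from 0 to 18.2%. Neuronal and synaptic genes had 6 of 33 (18.2%), led by the adhesion gene Nrg (79.21) and the guidance gene NetB (74.95), and dlg1 had a member of 88.57 beside an IDR peak. Proneural, neuroblast and glial genes had 4 of 28 (14.3%): pnt (90.80), vnd (78.27) and insc (70.97) were the strongest. Signalling genes had 5 of 44 (11.4%), among them sty (93.22), the Ras pathway inhibitor sprouty, and pnt, and spi (86.46), an EGF receptor ligand, had a member beside an IDR peak. Segmentation and homeotic genes had 2 of 37 (5.41%), ftz-f1 (87.79) and oc (79.00). Muscle genes had 0 of 31 and E(spl) genes 0 of 4, with Tm1 (78.46) in the muscle list having both kinds of region.

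Cuticle proteins had 1 of 96 (1.04%), Cpr73D (71.65), and odorant and gustatory receptors 1 of 119 (0.84%), Gr63a. Both share the region with another gene, Ogdh at Cpr73D and Lamtor4 at Gr63a. The share over protein-coding genes is no background for the non-coding lists, and none was computed for them. Transfer RNA genes had 14 of 279 (5.02%), several in clusters under 1 member, such as tRNA:Val-AAC-2-1 and tRNA:Val-AAC-2-2 (86.35). The strongest was at tRNA:Lys-TTT-1-1 (92.48). Small nucleolar RNA genes had 5 of 254 (1.97%), led by snoRNA:Or-aca2 (88.34), whose member is that of RpS6. Small nuclear RNA genes had 1 of 23 (4.35%), snRNA:U4:38AB (74.15).

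**Figure D5:**
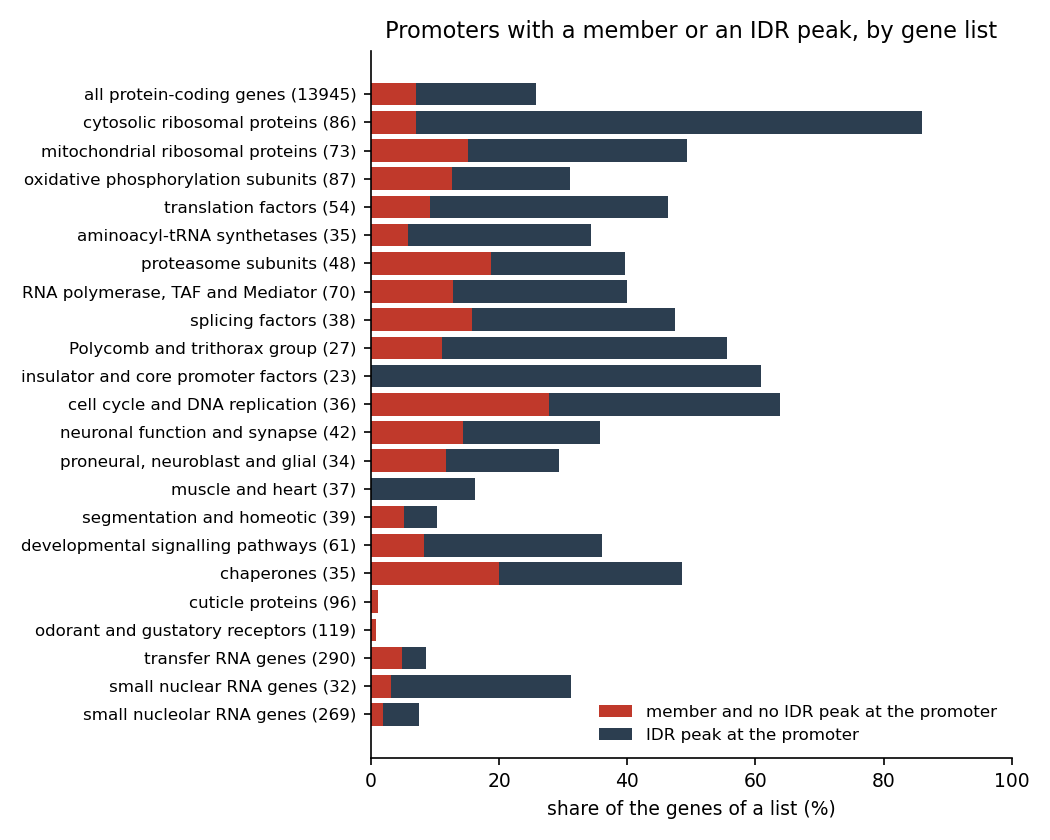
Share of the genes of each list (percent, horizontal axis; list size in brackets) with a member and no IDR peak at the promoter, and with an IDR peak there; the list of 7 E(spl) genes is left out. Cell cycle genes have the longest member segment (27.8%), and muscle genes and insulator factors have none.

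Cam, the calmodulin gene itself, had a member at its promoter and 2 IDR summits inside the gene. The member, whose nearest start site is that of lncRNA:CR43900, on chromosome 2R (12259316 to 12259739, dm6) had a signal value of 80.02, pooled rank 5130 and a summit 130 bp downstream of a start site of Cam, with rank 7675 in replicate 2 and 4478 in replicate 3. Camta (signal value 265.02) and Fbxl4 (316.00) had IDR peaks at their promoters and no member. ninaE, which encodes the major rhodopsin, had neither at its promoter.

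At promoters, members carried the DRE and Motif 1, as IDR peaks and remaining regions did. The DRE was within 50 bp of the summit in 4.05% of promoter members (37 of 913) and in 0.383% of their own flanks, windows 500 bp to either side (difference 3.67 points, interval 1.69 to 5.65), and in 3.96% of promoter IDR peaks. The shorter DRE core CGATA, which the full DRE contains, was in 25.3% of promoter members, against 11.3% of flanks. Motif 1 was in 28 promoter members (3.07%), against 0.438% of flanks, and in 2.23% of promoter IDR peaks. Promoter summits of remaining regions also held more of both than their flanks (DRE 1.92% against 0.532%, Motif 1 2.02% against 0.515%). Members with the highest signal values and a DRE, picked after their values were seen, were CG2200 (95.05), pix (94.76), CG11791 (93.21) and Uch (92.90), before mad2 and Nf1 shown above. Those with Motif 1 were CG30414 (93.76), CG12213 (92.49), CycB3 (91.69) and Meltrin (90.96). Away from promoters the DRE was in 5 of 1087 members (0.46%), against 0.184% of flanks, with an interval that included 0 (-0.39 to 0.942).

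Compared with remaining regions, all members together had more DRE (2.1% against 0.597%), more DRE core (17.2% against 11.8%), more Motif 1 (1.75% against 0.649%) and more TATA boxes (TATAAA, 15.4% against 10.1%). Motif 1 was not called within 25 bp of the summit (0.41 points), nor the TATA box without replicate 3 (1.66 points). Members have more promoters than remaining regions, and at promoters alone the DRE (2.13 points, 0.387 to 4.79) and its core were called, while Motif 1 (1.04 points, -0.475 to 3.47) and the TATA box (1.24 points, -2 to 5.21) were not. Against IDR peaks 14 of 16 motifs had an interval that included 0, with a DRE difference of -0.0572 points (these intervals hold together over 32 comparisons). The exceptions were the CGCG core and CCGG. The CGCG core, the letters of the Camta box, was in 15.5% of members, against 11.6% of IDR peaks (difference 3.95 points, 1.02 to 7.06) and 18.9% of remaining regions (difference -3.37 points, -5.9 to -0.526). The difference from remaining regions was not called within 25 bp of the summit (-1.44 points) nor at promoters alone (-0.663 points, -5.16 to 4.34). CCGG, searched as a control of the same letters, was in 10.7% of members, against 8.03% of IDR peaks and 21.1% of remaining regions. GCGC, the other such control, was in 20.3% of members, against 17.8% of IDR peaks, with an interval that included 0 (-0.826 to 6.03), and 26.9% of remaining regions. The part of the G and C share in these motif shares was not tested.

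The CGCG core was no more frequent at member summits than around them: at promoters it was in 23.1% of members and 20.4% of their flanks (interval of the difference -2.18 to 7.54), and elsewhere in 9.11% of members against 13.2% of flanks (difference -4.14 points, -7.49 to -0.785). At promoters it was in 15.3% of IDR peaks, 7.79 points below members (2.92 to 13). The flanks of those IDR peaks had 22.9%, so their summits held less of it (difference -7.59 points, -10.6 to -4.58). Both controls were also less frequent at promoter IDR summits than in their flanks (differences -5.91 points for GCGC and -11.3 points for CCGG). At promoter members CCGG was less frequent than in their flanks (difference -6.02 points, -10.2 to -1.8). GCGC there had an interval that included 0 (difference -2.41 points, -7.68 to 2.86), as the CGCG core did. Between promoter members and promoter IDR peaks neither control was called, with differences of 4.46 points for GCGC (-0.732 to 9.97) and 2.32 points for CCGG (-1.46 to 6.61). Both intervals overlap that of the CGCG core, and no contrast of the core with a control was computed. The CGCG core difference from IDR peaks over all members was not called with replicate 3's list alone (without replicate 2), at 2.45 points. It was 10.1 points with replicate 2's list alone. The difference from remaining regions was 3.08 points with replicate 2's list alone (without replicate 3), the opposite direction. The TATA box at promoters was in 11.6% of members, against 16.9% of IDR peaks (difference -5.29 points, -9.29 to -0.813). Over all locations that difference was -2.23 points and was not called, was -7.18 points and called without replicate 3, and was 0.12 points without replicate 2. Against their flanks, promoter members had no called TATA box excess (11.6% against 11.3%), while promoter IDR peaks had one (16.9% against 9.89%). Away from promoters members had 18.6%, against 13.1% of flanks (difference 5.47 points, 1.34 to 9.6).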

How the data were processed

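ChIP-seq peak lists of 2 biological replicates of whole Camta-eGFP embryos were used. According to the file records, relaxed lists holding peaks and background exist per replicate and for the pool, all made with the same additional file (its kind is not named, and it is assumed to be the control), and they were the input of the optimal IDR list. The sources used here name neither aligner nor peak caller. The authors deposited a signal value for each region, on a scale that is not explained, and a q value as −log10. They also deposited each summit as an offset from the start of its region. Printed positions count from 1. No read counts were used, so the depth is unknown, and an interval reflects the number of regions alone.

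Regions overlapping an IDR peak by 1 bp were dropped and the 2000 of highest signal value kept. Members and gene lists were chosen with earlier results of these data known. The annotation was Ensembl release 115 (BDGP6.54), on dm6 coordinates, without transposable elements and pseudogenes. Each summit got the first of these locations that applied: promoter (500 bp), coding exon, UTR, exon of a non-coding gene, intron, intergenic. Shares were compared by Newcombe intervals and means by normal intervals, at 95% simultaneously (Bonferroni) over 14 location, 8 other feature, 10 G and C and 32 motif comparisons of each kind. The comparison of members strong in 1 replicate used single 95% intervals. A difference was called where its interval left out 0. The coding exon G and C difference from IDR peaks was not counted as called, since 9 regions are too few for a normal interval. With 1 group of 2 replicates there was no test over samples. The 16 motifs were searched on both strands. Named genes are those of the 12 strongest promoter members, the 6 strongest other members, up to 3 of each list, the edges of the rule, and Camta, Fbxl4, Cam and ninaE. Others are said to be picked after their values were seen. Listed symbols not matched were Prp4, SmG, zw5, Nelf-B, Dl, msh, Dmef2, Unc-89, duf, nos, h and punt. Alternatives covered the number kept, q value, distance from IDR peaks, windows, overlap, build (dm3, by the both-replicate share) and each replicate's list alone. With each replicate's list alone, the IDR peaks stayed those made from both replicates. Calculations were tested on simulated data. Python 3.11.15, NumPy 2.4.6, pandas 2.3.3 and SciPy 1.17.1 were used.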

Additional observations from a re-analysis of the deposited data

How the results depend on the processing

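No paired analysis was possible because both replicates belong to 1 group. Of the main differences under the alternatives, 80 kept their direction and call and 2 turned round. Of the counts, 11 stayed within 1.5 times the reported one and 5 did not. The intron share was never called. Its difference from IDR peaks ran from -2 to 2.85 points and that from remaining regions from -2.7 to 1.57 points over the lists that leave out 1 replicate, with the negative values without replicate 3. The coding exon difference from IDR peaks was 1.25 points with a promoter window of 1000 bp and 4.24 points with the 3000 strongest regions, against 2.43. Genes with a member numbered 555 with the 1000 strongest regions, against 1072. Motifs called against IDR peaks numbered 2, against 1 with windows of 25 bp and 1 with 100 bp to either side, and 0 to 5 over the lists that leave out 1 replicate. Members in both replicates were 96% when 50% of the member had to be covered, against 98%. Among single motifs, the DRE difference from IDR peaks was 0.158 points with 25 bp to either side, the TATA box difference from them -7.18 to 0.12 points and the CGCG core difference from remaining regions -3.78 to 3.08 points over the lists that leave out 1 replicate, and -1.44 points, no longer called, with 25 bp to either side. Comparisons with the neighbouring 2000 regions on either side, with promoter summits alone and with regions that overlap IDR peaks were chosen after seeing the data, and kept every direction and call they were run on. The cause of these changes was not tested. The unknown depth limits what can be read from regions this close to the threshold.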
